A study of Rattus norvegicus with 18 samples.

Results

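Dusp1, Dusp4, Dusp5, Dusp6, Rgs2, Zfp36 and Zfp36l1 were followed through rat lungs before and after interruption of the blood supply. They are early response genes whose products shut signalling down again. All probe sets whose platform symbol was one of these 7 names were taken, which gave 11 probe sets. Of these, 10 probe sets of 6 genes passed the filter on low signal, among 10533 probe sets and 7728 genes tested in all. Dusp4 did not pass it. All 6 tested genes would have passed on their control lungs alone.

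The lungs came from male Sprague-Dawley rats that were anesthetized and ventilated. In operated rats the hilum of the left lung was clamped for 2 h, with the lung warm and in place, and the lung was then reperfused and ventilated for 30 min or for 3 h. Left and right lungs were collected at each time (n = 3 for each side and time), so the right lungs, which were never clamped, came from the same anesthetized and operated animals. The controls were normal lungs of 6 rats, taken right after sacrifice, whose side the labels do not give. The arrays measured pieces of whole lung, so a change in the number of cells of a type and a change in RNA per cell cannot be told apart. Left and right also differ in side, and no lung was taken after the clamp without reperfusion.

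The mitogen-activated protein (MAP) kinases ERK, JNK and p38 carry growth factor, cytokine and stress signals to the nucleus. Dual-specificity phosphatases (Dusp genes) remove the activating phosphates from them, and several are themselves induced by the pathway, which makes a negative feedback loop. Rgs2 is a GTPase-activating protein that shortens signalling from G proteins of the Gq class, and it is known as a brake on vasoconstrictor receptors. Zfp36 encodes tristetraprolin, which binds AU-rich elements near the ends of cytokine and early response mRNAs and brings in the deadenylase that starts their decay. Zfp36l1 encodes a close relative with the same kind of zinc fingers.

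The start regions of 3 of these genes are shown because they hold the letters of known stimulus response elements and because the 3 genes were raised in the clamped lungs. They are the 200 bases before the RefSeq start site in the rat assembly GRCr8, written 5′ to 3′ along the gene. Capitals mark every match to 4 motifs searched on both strands. These were the cAMP response element (CRE) TGACGTCA, its half-site TGACG, which lies inside the full element, the AP-1 site TGANTCA, and the CArG box bound by serum response factor. The Dusp1 region is chr10:17184653-17184852 on the plus strand, the Dusp5 region is chr1:262543574-262543773 on the plus strand, and the Zfp36 region is chr1:92799109-92799308 on the minus strand.
Dusp1: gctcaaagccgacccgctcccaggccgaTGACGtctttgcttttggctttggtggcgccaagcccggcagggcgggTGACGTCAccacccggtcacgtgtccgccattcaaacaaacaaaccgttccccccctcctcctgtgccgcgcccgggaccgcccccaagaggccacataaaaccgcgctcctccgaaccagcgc
Dusp5: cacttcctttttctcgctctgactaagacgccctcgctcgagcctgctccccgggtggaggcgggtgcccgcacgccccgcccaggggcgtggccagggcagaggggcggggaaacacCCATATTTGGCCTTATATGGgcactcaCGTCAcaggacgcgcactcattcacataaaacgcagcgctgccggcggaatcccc
Zfp36: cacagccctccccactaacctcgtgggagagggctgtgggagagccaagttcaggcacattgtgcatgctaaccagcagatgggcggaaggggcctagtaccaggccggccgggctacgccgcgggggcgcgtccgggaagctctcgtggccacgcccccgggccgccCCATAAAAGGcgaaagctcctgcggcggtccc

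Dusp1 held a full CRE from base 124 to base 117 before the start, an element found in 1.57% of 27457 rat windows of this length. It held a further half-site at bases 172 to 168. Dusp5 held 2 CArG boxes end to end, at bases 82 to 73 and 72 to 63, and a half-site at bases 55 to 51. Zfp36 held a CArG box at bases 32 to 23. A CArG box was found in 1.14% of all windows, the half-site in 16.6% and AP-1 in 4.98%. Of the 6 members with an entry in the table, the Zfp36l1 window held an AP-1 match, while those of Rgs2 and Dusp6 held none of the 4 motifs. These matches are descriptions of letters only.

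The arrays are described before the values because a few of them weigh on the results. Degraded RNA raises the actin ratio, the signal of the 3′ control probe set for actin over that of the 5′ one. Left 30 min replicates 1 and 3 had ratios of 4.81 and 2.30, right 30 min replicate 3 had 2.93, and the other 15 arrays had 1.31 to 1.78. Surfactant protein Sftpc had signals of 10573 to 16252 and the club cell gene Scgb1a1 10234 to 15991 over the 18 lungs, so the tissue carried lung markers throughout. The mean log2 signal of 7 neutrophil markers was 7.88 to 8.51 in the controls, 8.44 to 9.90 in left lungs at 30 min and 8.91 to 10.23 at 3 h, and 8.59 to 9.63 and 8.82 to 9.93 in right lungs. The mean of 14 cardiac muscle markers was 5.98 to 6.11 in left lungs at 3 h and 7.21 to 8.60 in right lungs at 3 h, around a control range of 5.90 to 7.76. A total of 12 marker lists of lung, blood and heart cell types was followed. The alveolar type II mean of 8 markers was 11.65 to 12.23 in left lungs at 3 h, 12.20 to 12.49 in left lungs at 30 min and 12.28 to 12.46 in right lungs at 30 min, below the controls at 12.55 to 12.61. In left lungs at 3 h, where 24.1% of all genes were called lower and 13.5% higher, 5 of the 8 were called lower. There 6 of 9 tested lymphocyte markers were also lower, and 3 of 7 neutrophil markers were higher and 1 lower. Alveolar type I markers were below the controls in right lungs at 30 min (11.95 to 12.10 against 12.33 to 12.43), where 4 erythroid markers were above them (10.59 to 11.15 against 9.40 to 9.94). Lymphocyte markers were below the control range of 7.87 to 8.30 in left lungs at 3 h (7.24 to 7.85) and in right lungs at 30 min (7.21 to 7.73) and 3 h (7.30 to 7.47). Endothelial markers were below their controls in left and right lungs at 3 h, and club cell and fibroblast markers in left lungs at 3 h, whereas monocyte and macrophage, mast cell and smooth muscle markers overlapped the controls in every group. The part of these cell types and of RNA quality in the results below was not tested, except where values without an array are given.

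In 3 of the 4 operated groups a single lung had the highest signal of all 6 tested members. In left lungs at 3 h this was replicate 1, which was the highest of the 3 lungs in 29.0% of all genes. In right lungs at 30 min it was replicate 1 (30.6% of all genes), and in right lungs at 3 h it was replicate 3 (30.7%). Their actin ratios were 1.61, 1.47 and 1.56, within the range of those 15 arrays. Their neutrophil marker means were 10.23 and 8.59, the highest and the lowest of their groups, and 9.93. The last was the highest of its group, close to the 9.89 of right 3 h replicate 1. Each lung had the highest monocyte and macrophage mean of its group, at 10.40, 9.85 and 10.52, where the controls had 9.57 to 10.09. Their lymphocyte means were 7.85, the highest of its group, and 7.21 and 7.30, each the lowest of its group. Whether these marker means and the members go together was not tested. In left lungs at 30 min no lung was highest in more than 3 of the 6.

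**Figure D1:**
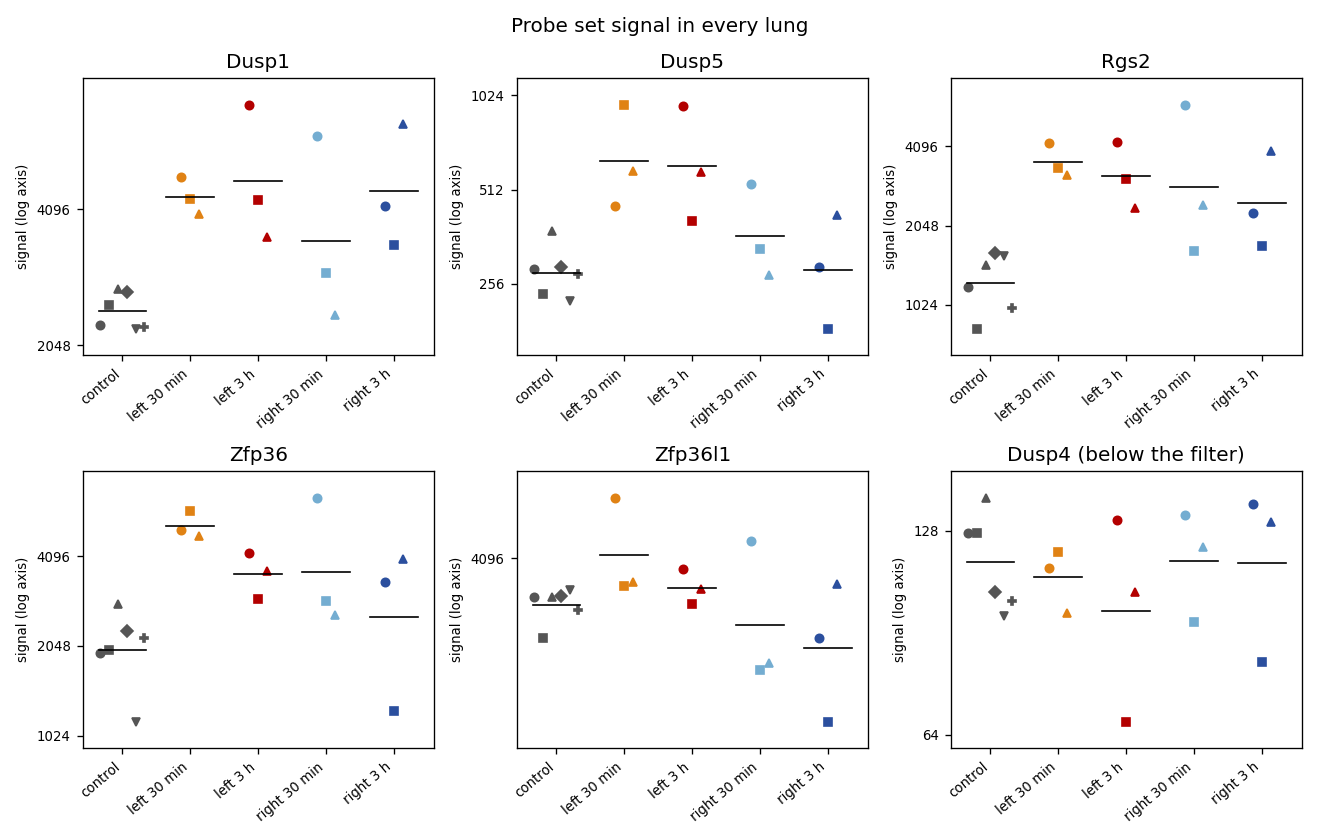
Signal on a log axis in every lung for Dusp1, Dusp5, Rgs2, Zfp36, Zfp36l1 and Dusp4, with the 6 controls and 3 lungs in each operated group. Each point is a lung, its shape the replicate number, and each bar is the mean of the group's log2 signals. All left lungs lie above all controls for Dusp1, Dusp5, Rgs2 and Zfp36, and Dusp4 stays between 67 and 143 in every lung. Right lungs scatter more widely than left lungs of the same time for Rgs2, Zfp36 and Zfp36l1, but not for Dusp5.

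In clamped left lungs reperfused for 30 min, Dusp1, Dusp5, Rgs2 and Zfp36 rose above control, by 1.78-fold to 2.83-fold. Thus 4 of the 6 tested members were called higher and 0 lower, where 8.64% of all genes were called higher and 9.52% lower (limma, adjusted p under 0.05). After 3 h Dusp1, Dusp5 and Rgs2 were called higher, 3 of 6 against 13.5% of all genes, and 0 were lower, against 24.1%. All 3 left lungs lay above all 6 controls in 5 of 6 members at 30 min and in 4 of 6 at 3 h, against 12% and 13.8% of all genes. In unclamped right lungs 1 member, Rgs2, rose at 30 min (5.93% of all genes were called higher and 6.33% lower), and 2, Dusp1 and Rgs2, rose at 3 h (7.75%). The main Dusp6 probe set fell in right lungs at 3 h, 1 of 6 against 12.6% of all genes called lower. The median log2 difference from control of the 6 members was 0.98 and 0.89 in left lungs at 30 min and 3 h, and 0.43 and 0.20 in right lungs. Over all genes it was -0.06, -0.13, -0.04 and -0.05. These 4 comparisons share the same control lungs. Without the 3 arrays of high actin ratio, only replicate 2 is left of the left lungs at 30 min. The log2 differences from control at 30 min were then 1.69 for Dusp5, 1.43 for Rgs2, 1.53 for Zfp36 and 0.82 for Dusp1. They rest on that 1 lung, whose Dusp5 signal of 953 was the highest of its group, so no call is drawn from them.

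**Figure D2:**
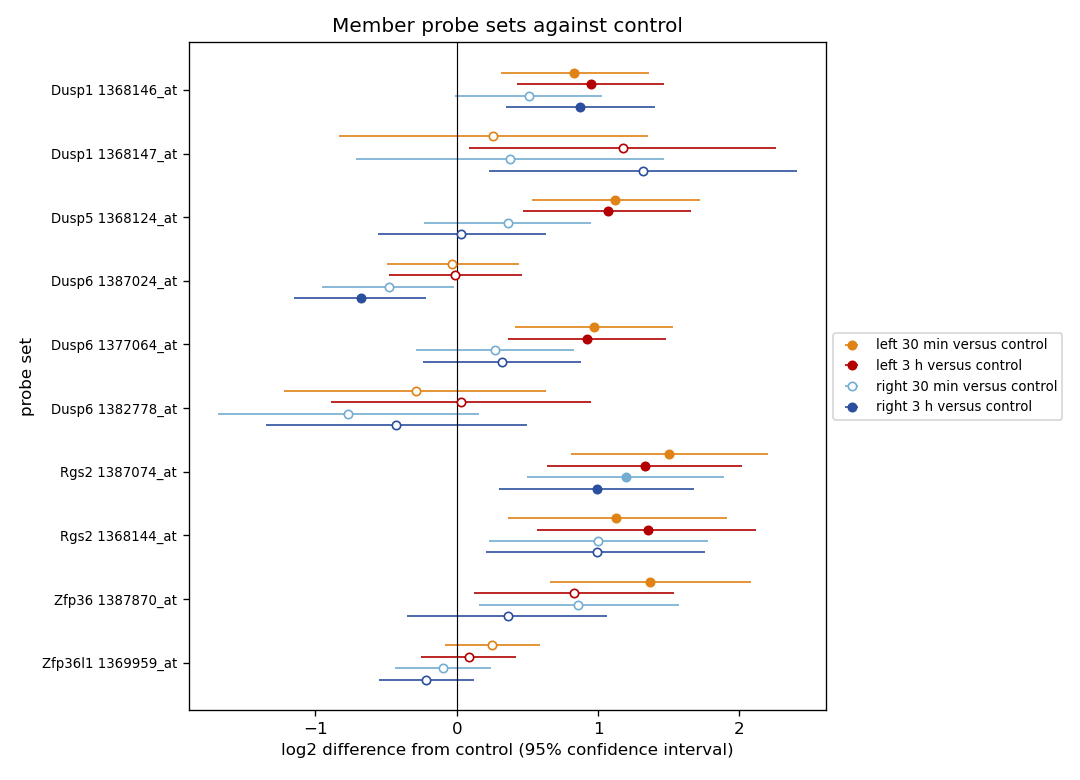
Log2 difference from control of the 10 tested member probe sets in the 4 operated groups, with 95% confidence intervals from limma. Filled points passed the adjusted p of 0.05 and open points did not. Intervals of Rgs2 lie above 0 in all groups, and the 3 Dusp6 probe sets differ from each other.

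Rgs2 was the most widely raised member. Its main probe set, 1387074_at, had signals of 833 to 1607 in the controls, with a median of 1323. In left lungs the signals of replicates 1, 2 and 3 were 4199, 3373 and 3178 after 30 min of reperfusion and 4260, 3078 and 2387 after 3 h. In right lungs the signals were 5859, 1645 and 2454 after 30 min and 2286, 1714 and 3928 after 3 h. All 12 operated lungs thus exceeded the highest control, though right 30 min replicate 2 did so by little. The log2 difference from control was 1.5 ± 0.33 (SE, 2.83-fold, limma adjusted p = 0.0043) and 1.33 ± 0.33 (2.51-fold, adjusted p = 0.0048) in left lungs at 30 min and 3 h. In right lungs it was 1.20 ± 0.33 (2.29-fold, adjusted p = 0.023) and 0.99 ± 0.33 (1.99-fold, adjusted p = 0.040).

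Rgs2 log2 means (1387074_at) fell in the order left 30 min, left 3 h, right 30 min, right 3 h and control. By mean signal right 30 min (3319) stood above left 3 h (3242), and the 4 operated groups overlapped. The call in right lungs at 30 min ended without right 30 min replicate 1 (log2 difference 0.69 ± 0.30, adjusted p = 0.18). That at 3 h ended without right 3 h replicate 1 (1.05 ± 0.39, adjusted p = 0.073), without replicate 3 (0.67 ± 0.36, adjusted p = 0.23) and without control replicates 1, 2 or 6 (0.98, 0.88 and 0.93, adjusted p = 0.062, 0.077 and 0.072). The adjusted p over all alternatives ran from 0.008 to 0.18 at 30 min and from 0.018 to 0.23 at 3 h. The second Rgs2 probe set, 1368144_at, whose log2 mean was highest in left lungs at 3 h, correlated with the first at r = 0.94 over the 18 arrays. It was also called in both left groups (log2 1.13 ± 0.37, adjusted p = 0.039, and 1.35 ± 0.37, adjusted p = 0.0088), and not in the right ones (1.0 ± 0.37, adjusted p = 0.081, and 0.99 ± 0.37, adjusted p = 0.066). The right values passed without replicate 2 of their group (1.36 ± 0.40, adjusted p = 0.042, and 1.41 ± 0.39, adjusted p = 0.020). Its left 30 min call ended in 10 of 18 alternatives, among them the loss of any left 30 min lung (adjusted p = 0.11, 0.14 and 0.052 without replicate 1, 2 or 3) or of control replicate 1, 2, 4, 5 or 6 (0.054 to 0.067), and its left 3 h call ended without left 3 h replicate 1 (1.05 ± 0.41, adjusted p = 0.078).

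Dusp1, a nuclear phosphatase that acts chiefly on p38 and JNK, had control signals of 2228 to 2727 with a median of 2390 (1368146_at). Left lungs gave 4824, 4305 and 4000 at 30 min and 6963, 4291 and 3548 at 3 h. Right lungs gave 5944, 2953 and 2388 at 30 min and 4170, 3419 and 6321 at 3 h. All left lungs and the right lungs at 3 h were above every control, whereas right 30 min replicate 3 lay within the control range. The log2 difference was 0.83 ± 0.25 (SE, 1.78-fold, limma adjusted p = 0.025) in left lungs at 30 min and 0.95 ± 0.25 (1.93-fold, adjusted p = 0.0066) at 3 h. In right lungs it was 0.51 ± 0.25 (adjusted p = 0.19) at 30 min and 0.87 ± 0.25 (1.83-fold, adjusted p = 0.019) at 3 h.

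The calls of Dusp1 were not secure against the loss of a lung. At 30 min in left lungs the adjusted p became 0.10, 0.067 and 0.05 without replicate 1, 2 or 3, with log2 differences of 0.76, 0.84 and 0.90. At 3 h it was 0.073 without left 3 h replicate 1 (0.67 ± 0.26) and, in right lungs, 0.13 without right 3 h replicate 3 (0.63 ± 0.27). The second probe set, 1368147_at, was dimmer, with control signals of 364 to 816, and correlated with the first at r = 0.71 over 18 arrays. It gave log2 differences of 0.26 ± 0.52, 1.18 ± 0.52, 0.38 ± 0.52 and 1.32 ± 0.52 in left 30 min, left 3 h, right 30 min and right 3 h, none of which passed (adjusted p = 0.76, 0.083, 0.68 and 0.079). Both 3 h values passed without the 3 arrays of high actin ratio (1.18 ± 0.36 and 1.32 ± 0.36, adjusted p = 0.019 for each). Those arrays are all 30 min lungs, so the 3 h differences themselves did not change. Only the SE, pooled over groups, fell from 0.52 to 0.36. In right lungs at 30 min its 3 signals were 2692, 740 and 209. With both probe sets averaged, the log2 difference of Dusp1 in left lungs at 30 min was 0.55 ± 0.35 and was not called (adjusted p = 0.29).

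Dusp5, a nuclear phosphatase specific for ERK, was raised in left lungs. Its signal was 225 to 376 in the controls, with a median of 280. Left lungs gave 453, 953 and 587 at 30 min and 950, 407 and 581 at 3 h, and all 6 exceeded every control. Right lungs gave 532, 330 and 272 at 30 min and 290, 184 and 426 at 3 h, so that 1 of 3 lungs at each time was above the controls. The log2 differences from control were 1.12 ± 0.28 (SE, 2.18-fold, limma adjusted p = 0.0099) and 1.07 ± 0.28 (2.10-fold, adjusted p = 0.0072) in left lungs, and 0.36 ± 0.28 (adjusted p = 0.43) and 0.03 ± 0.28 (adjusted p = 0.95) in right lungs. The call at 30 min ended without left 30 min replicate 2 (0.84 ± 0.30, adjusted p = 0.077) and that at 3 h without left 3 h replicate 1 (0.76 ± 0.30, adjusted p = 0.078).

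The group mean of Zfp36 was highest in clamped lungs at 30 min. Control signals were 1142 to 2831 with a median of 2074, and left lungs at 30 min gave 5008, 5791 and 4795, all far above them. At 3 h the left lungs gave 4190, 2939 and 3655, still above every control, the lowest of them only just. Right lungs gave 6405, 2887 and 2596 at 30 min and 3366, 1239 and 3991 at 3 h, and overlapped the controls at both times. The log2 difference was 1.37 ± 0.34 (SE, 2.58-fold, limma adjusted p = 0.0084) in left lungs at 30 min. It was 0.83 ± 0.34 (adjusted p = 0.060) in left lungs at 3 h, and 0.86 ± 0.34 (adjusted p = 0.098) and 0.36 ± 0.34 (adjusted p = 0.48) in right lungs. The difference between 3 h and 30 min in left lungs was -0.54 ± 0.39 (95% interval -1.35 to 0.28, adjusted p = 0.44). After centring of the arrays on their medians the left 3 h value was 0.94 ± 0.34 and passed (adjusted p = 0.040). It also passed with only the groups compared in the fit (adjusted p = 0.015) and without control replicate 3 (0.93 ± 0.34, adjusted p = 0.045).

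Zfp36l1 moved little. Its signals were 3091 to 3657 in the controls (median 3570), 3709 to 5071 in left lungs at 30 min and 3479 to 3944 at 3 h. In right lungs they were 2762 to 4353 and 2297 to 3746. The left lungs at 30 min were all above the controls, but the log2 difference of 0.25 ± 0.16 (SE) did not pass (95% interval -0.08 to 0.59, limma adjusted p = 0.28). The other differences were 0.09, -0.10 and -0.22 in left 3 h, right 30 min and right 3 h, with adjusted p = 0.69, 0.73 and 0.36. Dusp4, a nuclear phosphatase related to Dusp1, was dim everywhere. Its signals were 96 to 143 in the controls, 97 to 119 and 67 to 133 in left lungs, and 94 to 135 and 82 to 140 in right lungs. All groups overlapped, and every value was under the filter's level of 173.6, so it was not tested in the main comparison.

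Dusp6, a cytoplasmic phosphatase specific for ERK, gave answers that differed by probe set. Probe set 1387024_at, the brightest and therefore the one that represents the gene, had control signals of 2092 to 2896 (median 2696). Left lungs gave 2276, 2531 and 2798 at 30 min and 3181, 1739 and 3006 at 3 h, overlapping the controls. Right lungs gave 2471, 1415 and 1752 at 30 min and 1045, 1815 and 2118 at 3 h, mostly below them. Its log2 differences were -0.03 ± 0.22 and -0.01 ± 0.22 in left lungs (limma adjusted p = 0.95 and 0.98), -0.48 ± 0.22 in right lungs at 30 min (adjusted p = 0.16) and -0.68 ± 0.22 at 3 h (adjusted p = 0.035).

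Probe set 1377064_at of the same gene rose in the left lungs. Its control signals were 813 to 1782 (median 1322). Left lungs gave 2388, 2892 and 2204 at 30 min and 2783, 2090 and 2328 at 3 h, and all 6 exceeded every control. Right lungs gave 2003, 958 and 1807 at 30 min and 1046, 1987 and 1863 at 3 h, and spread across the control range and above it. The log2 differences were 0.97 ± 0.27 (SE, 1.96-fold, limma adjusted p = 0.016) and 0.92 ± 0.27 (1.89-fold, adjusted p = 0.012) in left lungs, and 0.27 ± 0.27 and 0.32 ± 0.27 in right lungs (adjusted p = 0.54 and 0.42).

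The third, 1382778_at, scattered most, with 537 to 1563 in the controls, 423 to 1261 and 677 to 1402 in left lungs and 247 to 1486 and 596 to 697 in right lungs. It passed in no comparison with control, but without right 30 min replicate 1, the highest of its group, it was lower there (-1.51 ± 0.37, limma adjusted p = 0.021). Over the 18 arrays the 3 probe sets correlated pairwise at r = 0.42, 0.25 and -0.07, as a description. No direction for Dusp6 as a gene can therefore be given. The fall in right lungs at 3 h also ended without right 3 h replicate 1 (-0.39 ± 0.22, adjusted p = 0.24), with arrays centred on their medians, with no low-signal filter, without control replicate 2, 4, 5 or 6 (-0.68 to -0.65, adjusted p = 0.056 to 0.064), and when the probe sets were averaged (-0.26 ± 0.21, adjusted p = 0.40). The left 3 h call of 1377064_at ended without left 3 h replicate 1 (0.81 ± 0.31, adjusted p = 0.072), and the 30 min call without left 30 min replicate 2 (0.86 ± 0.31, adjusted p = 0.075). Without the 3 arrays of high actin ratio its left 30 min difference, then resting on 1 left lung, was 1.19.

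**Figure D3:**
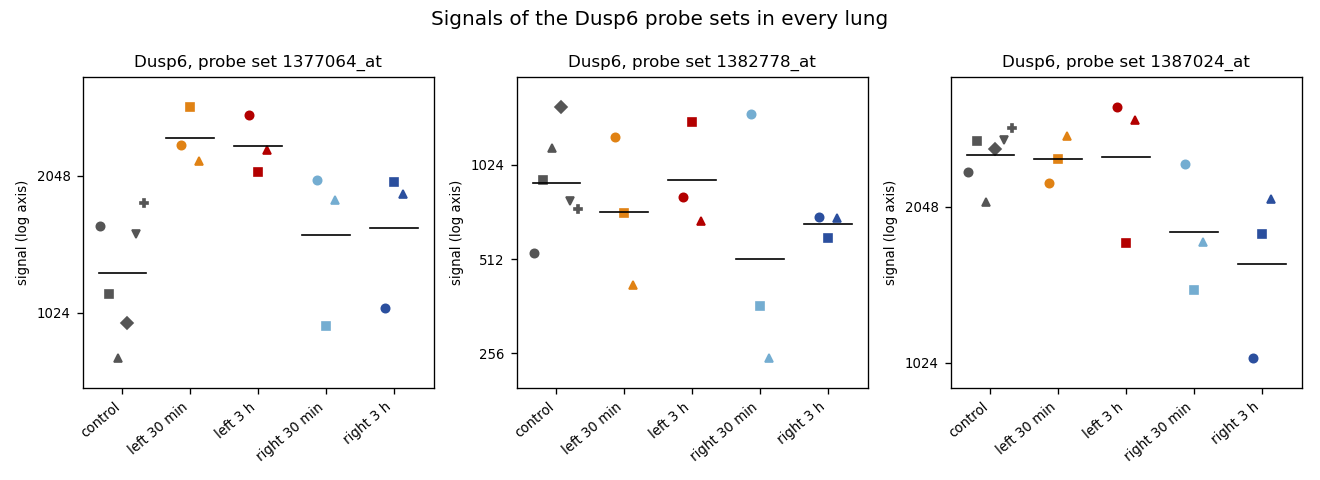
Signal on a log axis of the 3 Dusp6 probe sets in every lung, with point shapes for replicate numbers and bars for means of log2 signals. Left lungs stand above all controls in probe set 1377064_at, while in 1387024_at they overlap the controls and the right lungs at 3 h reach down to 1045.

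Left and right lungs of the same time were compared directly, without pairing by rat, to ask whether the clamped side differed. At 30 min 0 of 6 members were called, with 1, Dusp5, at an unadjusted p under 0.05, and 0.0518% of all genes were called by limma. The log2 difference of left over right was 0.76 ± 0.33 for Dusp5 (SE, 95% interval 0.08 to 1.45, adjusted p = 0.53), 0.51 ± 0.39 for Zfp36 (-0.31 to 1.32) and 0.33 ± 0.29 for Dusp1 (-0.28 to 0.93). For Rgs2 it was 0.31 ± 0.38 (-0.49 to 1.11), and for Zfp36l1 0.35 ± 0.18 (-0.04 to 0.74). The Rgs2 interval reaches from 0.71-fold to 2.15-fold, so differences of about 2-fold could not be told from none.

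At 3 h 0 of 6 members were again called, 2 of them (Dusp5 and Dusp6) having an unadjusted p under 0.05, beside 2.37% of all genes called. Dusp5 showed the greatest difference, 1.04 ± 0.33 (SE, 2.05-fold, 95% interval 0.35 to 1.72, limma adjusted p = 0.11). Its left signals of 950, 407 and 581 overlapped the right ones of 290, 184 and 426 only through left replicate 2 and right replicate 3. Without right 3 h replicate 3 the value was 1.31 ± 0.34 and was called (adjusted p = 0.041). Dusp6 1387024_at stood at 0.67 ± 0.26 (adjusted p = 0.17), Zfp36 at 0.47 ± 0.39, Rgs2 at 0.34 ± 0.38, Zfp36l1 at 0.31 ± 0.18 and Dusp1 at 0.08 ± 0.29 (interval -0.53 to 0.68).

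Between 30 min and 3 h 0 of 6 members were called in left lungs (3.07% of all genes) or in right lungs (0.194%), and 0 had an unadjusted p under 0.05 in either. The change of the left-right difference between the times was called in 0 of 6 members (0.233% of all genes), again with 0 at an unadjusted p under 0.05. In left lungs the log2 difference of 3 h over 30 min was 0.12 ± 0.29 for Dusp1 (95% interval -0.49 to 0.72), -0.06 ± 0.33 for Dusp5 (-0.74 to 0.63) and -0.17 ± 0.38 for Rgs2 (-0.97 to 0.63). These intervals allow a change from 0.714-fold to 1.65-fold for Dusp1 and from 0.509-fold to 1.54-fold for Rgs2.

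The genes that most resembled each member over the 18 arrays were ranked by Pearson correlation of log2 signal. This is a description with no test, since many genes differ between controls and operated lungs. Dusp1 ran closest to glutamine synthetase Glul (r = 0.95), Fdx1 (0.94) and nucleolin Ncl (0.93). Dusp5 ran closest to the early response genes Ier5, Fosl1 and Tiparp (0.93 each), and Zfp36 to Cxcl10 (0.91), Junb (0.91) and Tiparp (0.90). Rgs2 ran closest to Rrs1 (0.93), its relative Rgs16 (0.93) and Coq10b (0.92). Dusp6 and Zfp36l1 had looser neighbours, led by Ube2n (0.81) and Sec24c (0.86). Among the members themselves Dusp1 and Rgs2 correlated at 0.88 and Dusp5 and Zfp36 at 0.84, while the main Dusp6 probe set stood at -0.01 with Dusp1 and with Rgs2.

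The genes around the members were counted in 7 lists, to be read beside the shares of all genes. In left lungs 8.64% of all genes were higher and 9.52% lower after 30 min, and 13.5% higher and 24.1% lower after 3 h. In right lungs these shares were 5.93% and 6.33%, then 7.75% and 12.6%. Some list genes would not have passed the low-signal filter on their controls alone, so each such count partly reflects that choice, and the counts with no filter, an alternative chosen after seeing the data, are given where this touches many genes. ERK output genes, which are switched on by ERK signalling, had 16 higher and 1 lower of 19 tested in left lungs after 30 min and 15 higher and 1 lower after 3 h, the lower gene being the cyclin Ccnd1 both times. In right lungs 5 and 3 of 19 rose. Fosb, Fosl1 and Areg did not pass the filter on their controls. Over all 23 list genes on the array, with no filter, 15 and 14 were higher in left and 5 and 3 in right lungs, where 5.85%, 9.53%, 3.73% and 4.99% of all 10411 genes were. The median log2 difference of the 23 was 1.0, 0.91, 0.50 and 0.15 in left 30 min, left 3 h, right 30 min and right 3 h.

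The EGF receptor ligand Areg went from a mean signal of 88.7 ± 58.9 in controls (SD, n = 6) to 1655 ± 422 and 1476 ± 138 in left lungs and 843 ± 584 and 452 ± 225 in right lungs (n = 3 each). Myc, a growth regulator, rose 3.72-fold and 4.72-fold in left and 2.99-fold and 1.97-fold in right lungs (limma adjusted p = 0.00028, 3.3e-05, 0.0019 and 0.024). The transcription factor Ets2 rose 2.01-fold and 2.29-fold in left lungs (limma adjusted p = 0.00076 and 8.7e-05) and was 1.32-fold above control in right lungs at both times without passing (adjusted p = 0.14 and 0.11). In the direct comparison at 3 h, 6 of 19 were higher in left than in right lungs, against 135 of all 7728 genes. They were Fosb, Fosl1, Ier5, Klf6, Srf and Ets2, of which Fosb and Fosl1 had not passed the filter on their controls. No count with no filter was made for the direct comparison. Srf, which encodes serum response factor, was 2.04-fold higher there (log2 1.03 ± 0.20, adjusted p = 0.015).

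Of 20 other MAP kinase phosphatases and feedback inhibitors, 4 rose and 2 fell in left lungs at 30 min, and 7 rose and 2 fell at 3 h. In right lungs 3 rose and 0 fell at 30 min, and 4 rose and 1 fell at 3 h. Errfi1, an inhibitor of the EGF receptor, rose from a mean signal of 1249 ± 322 (SD, n = 6) to 4962 ± 446 at 30 min and 4258 ± 504 at 3 h in left lungs (4.01-fold and 3.44-fold, limma adjusted p = 1.1e-05 and 1.3e-05). In right lungs it rose 2.86-fold and 2.61-fold (adjusted p = 0.00019 and 0.00026). Its lowest operated lung, at 2295, was above its highest control, at 1635. The Sprouty inhibitor Spry1 rose 1.55-fold in left lungs at 30 min (adjusted p = 0.0048), and Dusp22 fell by 0.60 on the log2 scale at 3 h (adjusted p = 0.014). The phosphatase subunit Ppp2ca rose 1.49-fold at 3 h (adjusted p = 0.0021), where Ppm1d fell by 0.48 (adjusted p = 0.018). Ptpn7 and Dusp19 fell by 0.54 and 0.37 in left lungs at 30 min (adjusted p = 0.024 and 0.038), and Ptpn7 also fell in right lungs at 3 h (by 0.64, adjusted p = 0.0097). The only call between left and right at 3 h in this list was Dusp14, 1.74-fold higher in left lungs (adjusted p = 0.043).

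Of 26 genes of the MAP kinase cascade itself 5 rose and 1 fell in left lungs at 30 min, and 7 rose and 4 fell at 3 h, with list medians of 0.03 and -0.01. Right lungs had 6 higher and 1 lower at 30 min and 3 and 1 at 3 h. Map3k8, a kinase that activates the ERK branch downstream of inflammatory receptors, rose from a mean signal of 130 ± 25.7 (SD, n = 6) to 565 ± 153 and 669 ± 228 in left lungs (3.77-fold and 4.39-fold, limma adjusted p = 6.4e-06 and 1.1e-06). In right lungs it rose 2.74-fold and 3.12-fold (adjusted p = 0.00012 and 2e-05). All its controls, at 93 to 166, lay under the filter's level of 173.6, so it was tested only through the operated lungs. Map2k3, which activates p38, rose 2.15-fold and 2.66-fold in left lungs (adjusted p = 0.0033 and 0.00024) and 1.67-fold in right lungs at 30 min (adjusted p = 0.042). The p38 substrate kinase Mapkapk3 rose 1.52-fold and 1.81-fold in left lungs (adjusted p = 0.0064 and 0.00023) and 1.43-fold and 2.01-fold in right lungs (adjusted p = 0.022 and 0.00011). Its relative Mapkapk5 rose 1.47-fold and 1.43-fold in left lungs (adjusted p = 0.0059 and 0.0044) and was also called in right lungs at 30 min (1.31-fold). Mapk6, an atypical MAP kinase, rose 2.31-fold in left lungs at 3 h (adjusted p = 0.00014). Map3k11 and the JNK scaffold Mapk8ip1 fell by 0.49 and 0.45 there (adjusted p = 0.011 for each), and Map3k11 fell by 0.57 in right lungs at 3 h (adjusted p = 0.0082). The JNK gene Mapk9 fell by 0.42 and 0.43 on the log2 scale (adjusted p = 0.038 and 0.021).

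Among 19 other RGS and Gq pathway genes 6 rose and 1 fell in left lungs at 30 min, and 3 rose and 5 fell at 3 h. Right lungs had 5 higher and 2 lower at 30 min and 3 and 2 at 3 h. Rgs16, a relative of Rgs2, rose 3.67-fold and 3.16-fold in left lungs (limma adjusted p = 0.00041 and 0.00054) and 2.92-fold and 2.83-fold in right lungs (adjusted p = 0.0029 and 0.0023). Only 2 of its controls lay above the filter's level of 173.6, so it was tested through the operated lungs. The angiotensin receptor Agtr1a rose 1.77-fold and 2.04-fold in left and 1.87-fold and 2.11-fold in right lungs (adjusted p = 0.00041, 3e-05, 0.00028 and 3.5e-05). Phospholipase Plcb1, an effector of Gq, fell by 0.83 on the log2 scale in left lungs at 3 h (adjusted p = 0.0023) and by 0.77 in right lungs at 3 h (adjusted p = 0.0075). Its relative Plcb3 fell by 0.39 and 0.48 in left lungs (adjusted p = 0.040 and 0.0074) and by 0.64 in right lungs at 30 min (adjusted p = 0.0034). Plcb4 rose 1.53-fold in left and 1.44-fold in right lungs at 30 min (adjusted p = 0.0063 and 0.023). Rgs1 rose in all 4 groups, by 2.47-fold and 2.65-fold in left and 3.32-fold and 3.14-fold in right lungs (adjusted p = 0.048, 0.020, 0.017 and 0.015), and the G protein gene Gna12 fell by 0.52 in left lungs at 3 h (adjusted p = 0.0086). Rgs16 and Rgs19 did not pass the filter on their controls, and with no low-signal filter 3 of 23 genes of the list rose in left lungs at 30 min.

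Of 35 genes of the deadenylation and decay machinery with which tristetraprolin works, 1 rose and 1 fell in left lungs at 30 min, and 3 rose and 3 fell at 3 h. Right lungs had 3 higher and 0 lower at 30 min and 1 and 1 at 3 h. Btg3, an antiproliferative gene of the BTG/Tob family, rose 1.99-fold in left lungs at 3 h (limma adjusted p = 9.8e-05), and 1.37-fold and 1.74-fold in right lungs at 30 min and 3 h (adjusted p = 0.048 and 0.0012). The decapping scavenger enzyme Dcps fell by 0.38 and 0.42 on the log2 scale in left lungs (adjusted p = 0.021 and 0.0067) and by 0.36 in right lungs at 3 h (adjusted p = 0.027). Among subunits of the deadenylase complex, Cnot4 and Cnot2 rose 1.37-fold and 1.28-fold in left lungs at 3 h (adjusted p = 0.020 and 0.038), and Cnot4 rose 1.65-fold in right lungs at 30 min (adjusted p = 0.0032). Cnot8 fell by 0.43 and the decapping gene Dcp1b by 0.52 in left lungs at 3 h (adjusted p = 0.012 and 0.019), and Tob2 rose 1.34-fold at 30 min (adjusted p = 0.018).

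Of 16 genes in a list made for other proteins that bind AU-rich elements or stem-loops, 4 rose and 0 fell in left lungs at 30 min, and 6 rose and 3 fell at 3 h. Right lungs had 2 higher and 2 lower at 30 min and 2 and 3 at 3 h. Hnrnpa1 rose 2.28-fold and 1.76-fold in left lungs (limma adjusted p = 9.5e-06 and 0.00011) and 1.57-fold and 1.44-fold in right lungs (adjusted p = 0.0023 and 0.0061). Hnrnpdl rose 1.56-fold and 1.81-fold in left and 1.36-fold and 1.60-fold in right lungs (adjusted p = 0.0015, 6.3e-05, 0.023 and 0.00089). Tial1, which represses translation, rose 1.82-fold and 1.66-fold in left lungs (adjusted p = 0.0025 and 0.0039), as did nucleolin Ncl, by 1.42-fold and 1.48-fold (adjusted p = 0.013 and 0.0038). Ywhab and Celf1 fell by 0.47 and 0.46 on the log2 scale in left lungs at 3 h (adjusted p = 0.0048 and 0.0053), and Celf1 fell by 0.38 and 0.63 in right lungs (adjusted p = 0.036 and 0.0011).

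Khsrp, which like tristetraprolin promotes decay of AU-rich mRNAs, was lower. Its mean signal was 876 ± 144 in controls (SD, n = 6), 655 ± 251 and 378 ± 107 in left lungs, and 461 ± 77.8 and 384 ± 41.0 in right lungs. It fell by 1.19 on the log2 scale in left lungs at 3 h and by 0.89 and 1.13 in right lungs at 30 min and 3 h (limma adjusted p = 0.00038, 0.0096 and 0.0011), and in left lungs at 30 min the difference of -0.46 did not pass (adjusted p = 0.13). At 3 h all 3 lungs of either side were below the lowest control, with maxima of 445 and 418 against 764.

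Of 21 tested mRNAs reported as tristetraprolin targets, 11 were higher in left lungs at 30 min and 14 at 3 h, with 1, Ccnd1, lower at both times. In right lungs 9 and 7 were higher. Of the 21, 7 (Tnf, Il6, Cxcl2, Ccl2, Ptgs2, Plaur and Mmp9) had all controls under the filter's level and were tested only through the operated lungs. Over all 27 list genes on the array, with no filter, 11 and 14 were higher in left lungs and 7 and 7 in right lungs. The median log2 difference of the 27 was 0.53, 0.77, 0.52 and 0.36 in left 30 min, left 3 h, right 30 min and right 3 h, against 1.38, 1.27, 0.95 and 0.49 over the 21. This list shares Ccnd1, Fos, Ier3, Lif and Myc with the ERK output genes, so their counts are not independent. The cytokine Il6 had a mean signal of 47.1 ± 6.96 in controls (SD, n = 6), 1157 ± 331 in left lungs at 30 min and 1675 ± 1750 at 3 h, where the lungs ranged from 626 to 3701. In right lungs it was 481 ± 279 and 321 ± 312. The neutrophil chemokine Cxcl1 rose 6.68-fold and 7.34-fold in left lungs and 5.89-fold and 2.79-fold in right lungs (limma adjusted p = 1.4e-05, 4e-06, 4.2e-05 and 0.0024). The monocyte chemokine Ccl2 rose 16.5-fold and 11.9-fold in left and 8.22-fold and 2.94-fold in right lungs (adjusted p = 1.3e-05, 1.9e-05, 0.00025 and 0.018). Plaur, the urokinase receptor, rose 4.07-fold and 7.71-fold in left and 2.90-fold and 3.41-fold in right lungs (adjusted p = 0.0015, 3e-05, 0.014 and 0.0036). At 3 h Cxcl1, Ccl2 and Plau were higher in left than in right lungs (adjusted p = 0.043, 0.045 and 0.034), and no gene of the list was called lower.

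**Figure D4:**
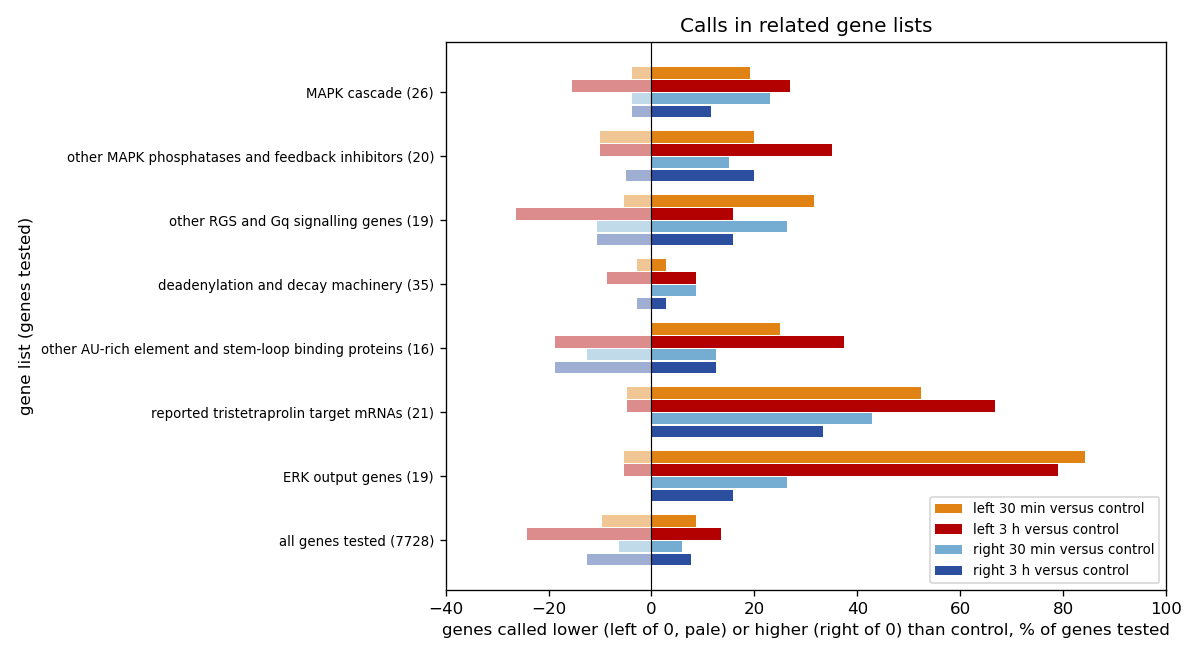
Share of genes called higher (right of 0) and lower (left of 0, pale) than control by limma in 7 related gene lists and over all 7728 genes, for the 4 operated groups, in percent of genes tested. ERK output genes reach 84.2% higher in left lungs at 30 min and 15.8% in right lungs at 3 h, while the decay machinery stays at or below 8.57%. The shares are of genes that passed the filter, among them 3 ERK output genes and 7 tristetraprolin targets whose controls alone would not have passed.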

How the data were processed

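RNA of 18 lungs was hybridized to 1-colour Affymetrix rat 230A arrays, 1 lung per array. The deposited values are probe set signals, an intensity on a linear scale made with MAS5 per the submitters' processing notes, and GeneSpring 7.2 is named in the design text for later work. The deposited intensities have a 2% trimmed mean of 500.1 on every array and were not scaled again.

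Values were analysed as log2(signal + 25), and folds on this scale understate changes of dim genes. Probe sets with at least 3 arrays above the 40th percentile (173.6) were tested, without the 57 control probe sets. Names came from the 2016 platform annotation, and a current RefSeq table changed 0 symbols. Where a gene had several tested probe sets, the one with the highest mean log2 value stood for it. All 10533 probe sets entered one limma fit (limma 3.58.1, R 4.3.3; lmFit on 5 group means, eBayes, two-sided, Benjamini-Hochberg adjustment within each comparison), and the code was tested on simulated data. Figures used Python 3.11.15 and matplotlib 3.10.9. The number of arrays limits the precision, and p-values measure the spread between lungs. Members, gene lists and alternatives were chosen with earlier results of these data known, and the promoter motifs after the values were seen. All members were named, then from each list up to 3 called genes per direction with the smallest adjusted p in each left-lung comparison with control. Other list genes named (Dusp14, those called between left and right lungs and those named for the filter) were chosen after their values were seen.

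Replicate numbers were read from the sample titles. The labels do not say that these numbers mark rats. Deviations from group means correlated at 0.12, 0.31 and 0.15 between same-numbered left and right lungs at 30 min. Of the differently numbered lungs at 30 min, left 1 with right 3 had 0.1, close to the lowest of these, and the others had -0.29 to 0.01. Same-numbered lungs at 3 h had -0.17, 0.07 and -0.15. Differently numbered lungs at 3 h correlated more: left 1 with right 3 at 0.34, left 2 with right 1 at 0.22 and left 3 with right 2 at 0.16. All other left-right pairs at 3 h had -0.24 to 0.07. Which 3 h lungs shared a rat is not known, and pairing under other numbers was not tested. The numbers were read as possible pairs only for the 30 min left-right comparison. There the replicate block, with only the lungs compared in the fit, changed no member's call (0 with and without it). A replicate block was also run in the other comparisons, among them left versus right at 3 h and the change of the left-right difference. In those the numbers are shared labels that were not shown to pair lungs. The left-right values printed for both times come from the fit without a block.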

Additional observations from a re-analysis of the deposited data

How the results depend on the processing

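The members called against control numbered 4, 3, 1 and 3 in left 30 min, left 3 h, right 30 min and right 3 h. Changing the pseudocount to 10 or 50, the filter to the 60th percentile, the scaling to quantile normalization or to centring on array medians, the gene value to the mean of its probe sets, or the fit to the groups compared kept each count within 1.5 times. Dropping the 3 arrays of high actin ratio leaves 1 left lung at 30 min, assumed to vary like the other groups, so no count is given there. The counts in right 30 min and right 3 h were then 0 and 1. Those arrays are all 30 min lungs, so the right 3 h differences did not change (Rgs2 0.99, Dusp6 -0.68). Their SEs, pooled over groups, rose from 0.33 to 0.35 for Rgs2 and from 0.22 to 0.24 for Dusp6, and both calls ended. A part of RNA quality in the right 3 h calls was thus not tested by this. With no low-signal filter the right 3 h count was 1. Leaving out 1 array at a time gave 2 to 4 members in left 30 min (2 without left replicate 2), 1 to 4 in left 3 h (1 without left replicate 1), 0 to 1 in right 30 min (0 without right replicate 1) and 1 to 3 in right 3 h (1 without right replicate 1 or 3 or control replicate 2 or 6). It gave 0 to 1 in left versus right at 3 h, and 0 in the other 4 comparisons. Blocking on replicate number gave 3, 4, 0 and 2 members against control, and 0 in each other comparison. The counts against control then rested on control replicates 1 to 3 and the lungs compared, without the other groups. The block was thus not the only change, and its own part in these counts was not tested. Outside the left-right comparison at 30 min the numbers are shared labels only. No called value of a member changed sign under any alternative. Of the counts of called list genes with no filter (chosen after seeing the data), that of the RGS and Gq list in left lungs at 30 min, 6 with and 3 without it, moved by over 1.5 times.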

Other observations

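Ptprr and Dusp9 encode phosphatases that act on MAP kinases. Ptprr rose in left lungs at 3 h, from a mean signal of 492 ± 69.5 in controls (SD, n = 6) to 1423 ± 65.6 (n = 3, 2.82-fold, limma adjusted p = 2.1e-05), while its 646 ± 193 at 30 min did not pass (adjusted p = 0.20). The difference between the times in left lungs was itself called (log2 1.15 ± 0.21, SE, adjusted p = 0.01). In right lungs Ptprr was called at 3 h (1.77-fold, adjusted p = 0.0051), and left over right at 3 h was 1.59-fold without passing (adjusted p = 0.11).

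Dusp9 rose at 30 min in lungs of both sides, from 115 ± 53.6 in controls to 309 ± 43.9 in left and 318 ± 36.3 in right lungs (SD, adjusted p = 0.0046 and 0.0058). At 3 h it stood at 117 ± 29.6 in left and 200 ± 120 in right lungs. The log2 difference between the times in left lungs, -1.25 ± 0.34 (SE), missed the threshold (limma adjusted p = 0.051). Of its 6 controls 1 lay above the filter's level, so it was tested through the operated lungs.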
